A study of Mus musculus with 34 samples.

Results

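The collagen genes of these mouse mammary tumours were taken as every gene of the deposited tables whose symbol has the form of an alpha chain (Col, a number, a, a number), with at least 10 unique molecular identifiers (UMIs, 1 per captured RNA molecule) over 11 single-cell tables. All 44 of the 44 genes with such a name passed, out of 32285 genes. By the kind of collagen they build, 11 were fibrillar, 18 network-forming or beaded, 9 fibril-associated, 4 transmembrane and 2 of the endostatin type. The rule used no treatment and no cell type.

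Collagens are secreted proteins of 3 alpha chains wound into a triple helix. Fibrillar chains such as Col1a1, Col1a2 and Col3a1 form the fibrils of connective tissue and are made mainly by fibroblasts. Type IV chains form the sheet of the basement membrane under epithelium and around vessels, and the fibril-associated type IX chains, best known from cartilage, decorate fibrils. In mammary tumours the stroma lays down most fibrillar collagen, while epithelium and endothelium contribute to basement membrane.

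MMTV-Wnt1 tumours are driven by a Wnt1 transgene under the promoter of the mouse mammary tumour virus, which acts in mammary epithelium. Tumours were transplanted into C57BL6/j mice, given for 1 sample type as wild type females of 6-8 weeks of age. The doxorubicin groups received 5 consecutive doses of 4 mg/kg of this DNA-damaging drug. Of the 34 samples of the series, 4 libraries of magnetically extracted CD45-positive cells (2 from tumours 48 h after the last dose, 2 from untreated tumours) and 6 libraries of CD4/8-positive cells (the T cell sort, 1 per group) were compared. The 6 T cell groups were doxorubicin followed by anti-PD1 and anti-CTLA4 at 200 ug each, by 200 ug anti-CTLA4 with 200 ug IgG, by 200 ug anti-PD1 with 200 ug IgG or by 400 ug IgG, then doxorubicin at 48 h, and no treatment. The first antibody dose followed 48 h after the drug, antibodies were given 3 times, 72 h apart, and those tumours were collected 24 h after the last dose. A pooled table of 4016 unsorted tumour cells, from 1 doxorubicin-treated and 1 untreated tumour, does not say which cell came from which tumour and was used as 1 sample. The labels do not say how many mice gave each library, so p values measure the spread between libraries only.

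The sorts were not pure. Cells were gated into 10 classes by 7 marker genes each, none of them a collagen. Luminal-gated cells made up 6.31 to 16.3% of the kept cells in the CD45 sort and 3.85 to 24% in the T cell sort, and T cell gates held 53.7 to 88.4% of the T cell sort. No doublets were removed. The second CD45 doxorubicin library stood apart with 92 fibroblast-gated cells, against 2 in the first doxorubicin library and 3 and 2 in the untreated ones. Libraries held 16908180 to 93748407 UMIs, so counting error was small for abundant chains. Libraries were made with a 3′ kit, and UMI levels were not scaled by gene length. In whole libraries, fewer cells of a type and less RNA per cell cannot be told apart.

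Shown first are windows of 250 bases before and 50 after the annotated start of the chains on which the results turn, 5′ to 3′ on the gene's strand, from RefSeq on GRCm38.p6. Capitals mark matches on either strand to 5 motifs, none of which is a bound site by its letters alone. The GC box was searched as GGGCGG. The CCAAT box was searched by the letters of its name. The TATA box was searched as TATAAA. For the AP-1 core the letters were TGANTCA. For the TCF/LEF core the letters were CTTTGA. The chains Col4a1 and Col4a2 were the most abundant of the basement membrane, and their windows share 78 bases, on opposite strands.
Col4a1, chr8:11312777-11313076, minus strand: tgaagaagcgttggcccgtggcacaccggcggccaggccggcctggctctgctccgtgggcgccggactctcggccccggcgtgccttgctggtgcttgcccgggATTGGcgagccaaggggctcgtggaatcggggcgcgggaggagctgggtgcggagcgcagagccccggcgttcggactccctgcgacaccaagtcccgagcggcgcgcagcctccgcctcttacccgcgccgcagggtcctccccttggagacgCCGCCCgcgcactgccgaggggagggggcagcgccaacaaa
Col4a2, chr8:11312555-11312854, plus strand: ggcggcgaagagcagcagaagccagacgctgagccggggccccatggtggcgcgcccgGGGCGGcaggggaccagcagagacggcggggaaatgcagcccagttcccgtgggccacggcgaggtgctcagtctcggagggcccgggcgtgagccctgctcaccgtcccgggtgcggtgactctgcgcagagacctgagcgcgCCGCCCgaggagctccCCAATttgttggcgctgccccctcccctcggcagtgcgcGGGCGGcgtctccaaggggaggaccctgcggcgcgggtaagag
The X-linked pair Col4a5 and Col4a6 were called higher after doxorubicin in luminal-gated cells. Their windows also lie on opposite strands and share 0 bases.
Col4a5, chrX:141475169-141475468, plus strand: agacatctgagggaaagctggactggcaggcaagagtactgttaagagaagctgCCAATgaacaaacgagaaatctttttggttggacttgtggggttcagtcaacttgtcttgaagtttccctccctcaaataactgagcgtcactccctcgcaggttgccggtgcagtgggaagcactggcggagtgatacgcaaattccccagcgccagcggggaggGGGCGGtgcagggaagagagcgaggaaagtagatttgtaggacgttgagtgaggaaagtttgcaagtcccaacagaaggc
Col4a6, chrX:141474027-141474326, minus strand: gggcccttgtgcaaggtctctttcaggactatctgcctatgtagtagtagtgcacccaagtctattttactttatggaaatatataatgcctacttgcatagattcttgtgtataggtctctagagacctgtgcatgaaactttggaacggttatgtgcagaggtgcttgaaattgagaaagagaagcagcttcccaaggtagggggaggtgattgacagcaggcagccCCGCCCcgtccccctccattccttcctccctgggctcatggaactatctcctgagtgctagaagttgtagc
Col9a1 was called lower after doxorubicin both in whole CD45 libraries and in luminal-gated cells, and 1 of its 2 annotated windows is given.
Col9a1, chr1:24177360-24177659, plus strand: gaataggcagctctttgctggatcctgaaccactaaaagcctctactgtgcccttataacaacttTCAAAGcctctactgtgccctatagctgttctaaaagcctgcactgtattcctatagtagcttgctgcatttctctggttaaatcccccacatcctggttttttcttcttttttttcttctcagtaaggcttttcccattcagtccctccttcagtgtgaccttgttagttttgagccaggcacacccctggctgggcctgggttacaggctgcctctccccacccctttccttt
The 2 type IV windows on chromosome 8 held 1 and 3 GC boxes and 1 CCAAT box each. The Col4a5 window held 1 GC box and 1 CCAAT box, and the Col4a6 window 1 GC box. The Col9a1 window shown held 1 TCF/LEF core and no GC box, and its other annotated window held 0 TCF/LEF cores and 1 CCAAT box. Windows were on hand for 35 of the 44 members, and 22 of these held a GC box, 13 a CCAAT box, 9 a TCF/LEF core, 5 a TATA box and 1 an AP-1 core. Over all 32851 windows of the genome the shares were 35.7% with a GC box, 37.4% with a CCAAT box, 16% with a TCF/LEF core, 13.6% with a TATA box and 7.81% with an AP-1 core. 

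Fibroblasts were the main source of fibrillar collagen in the unsorted tumour table. The 22 fibroblast-gated cells, 0.548% of the cells, held 39% of all collagen UMIs, at 512.4 collagen UMIs per 10000 UMIs of the gate. The 1499 luminal-gated cells, 37.3% of the cells, held a like share of 37.6%, at 7.883 per 10000. Between these levels lay 7 pericyte-gated cells at 292.7, 27 endothelial-gated cells at 89.94 and 13 basal-gated cells at 38.39 per 10000. The macrophage, neutrophil and T cell gates were at 0.7291, 0.5205 and 0.6431 per 10000. Few cells stand behind the stromal and basal values, so these are descriptions of 1 table with no test.

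**Figure D1:**
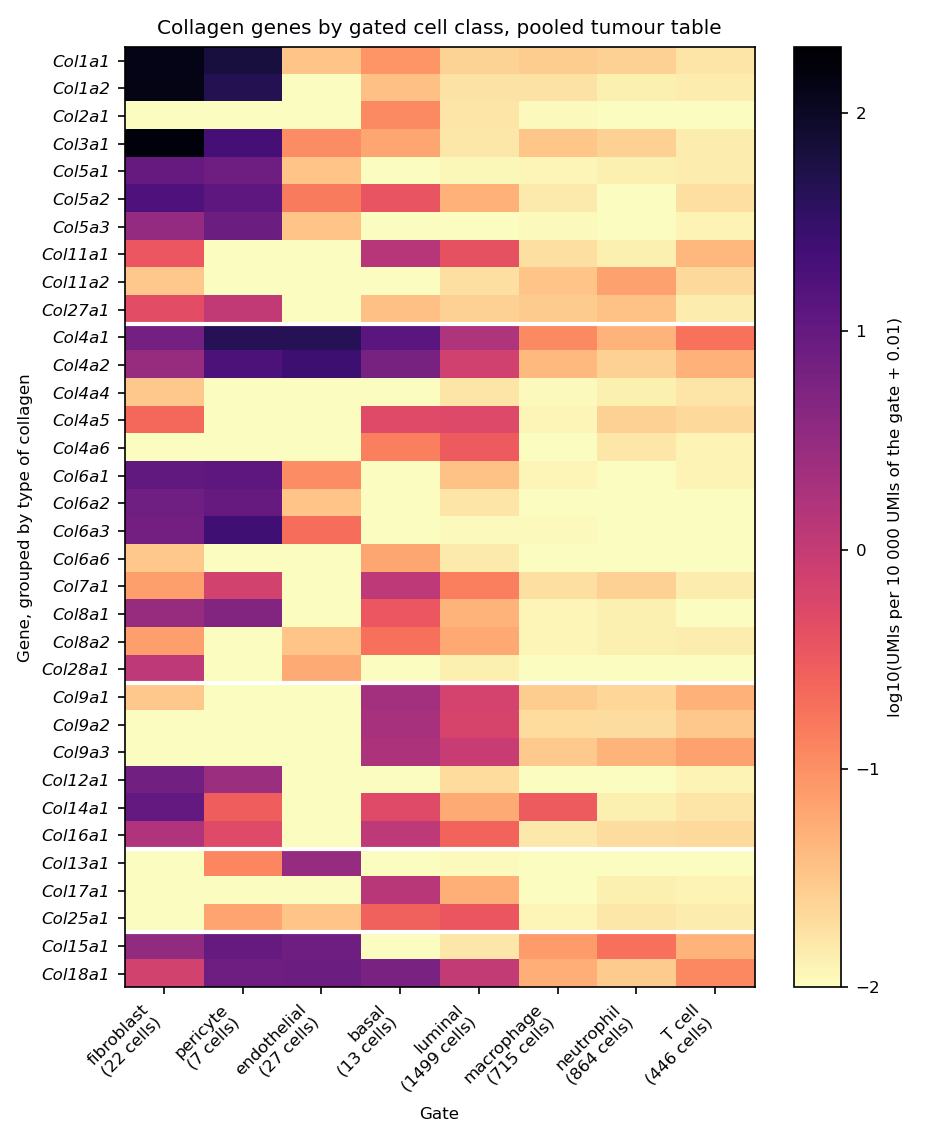
Level of each collagen gene with at least 20 UMIs in the pooled tumour table (rows, grouped by kind of collagen) in 8 gates (columns, with cells per gate), as log10 of UMIs per 10000 plus 0.01. Col1a1, Col1a2 and Col3a1 are darkest in fibroblast-gated cells, Col4a1 and Col4a2 in endothelial- and pericyte-gated cells, and Col9a1, Col9a2 and Col9a3 in basal- and luminal-gated cells.

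Among fibrillar chains, Col3a1 stood at 158.9, Col1a2 at 133 and Col1a1 at 127.4 UMIs per 10000 in fibroblast-gated cells, the 3 highest members there. Fibroblast-gated cells held 94.2% of the Col3a1, 87.8% of the Col1a2 and 83.1% of the Col1a1 UMIs of the table. Col5a2, a chain of the type V collagen that regulates fibril width, followed at 16.94 per 10000. Col12a1, which sits on fibrils, had 80.4% of its UMIs in this gate. Fibrillar chains were not all fibroblast genes: luminal-gated cells held 86.2% of the UMIs of Col11a1, a minor fibrillar chain known from cartilage.

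Pericyte-gated cells, which wrap small vessels, had Col1a1 at 63.05, Col1a2 at 46.06 and Col4a1 at 43.23 UMIs per 10000 as their 3 highest members. Their Col3a1 level was 21.2 per 10000. The ratio of Col3a1 to Col1a1 UMIs was therefore 0.336 (95% interval of counting error 0.299 to 0.378) in pericyte-gated cells, against 1.25 (1.21 to 1.29) in fibroblast-gated cells. The beaded-filament chain Col6a3 was also relatively more frequent there, at 2.05 UMIs (1.74 to 2.42) per Col6a1 UMI, against 0.655 (0.569 to 0.753) in fibroblast-gated cells. In all 4 CD45 libraries the Col6a3 to Col6a1 ratio was likewise higher in pericyte- than in fibroblast-gated cells. It was 1.11 and 1.03 in pericyte-gated and 0.342 and 0.491 in fibroblast-gated cells of the doxorubicin libraries, and 1.42 and 1.55 against 0.611 and 1.16 in the untreated ones. In the second untreated library the intervals overlapped (1.17 to 2.07 against 0.906 to 1.47). Few cells stand behind these values. Pericyte-gated cells numbered 3 and 5 after doxorubicin and 8 and 3 untreated, and fibroblast-gated cells 2 and 92 against 3 and 2. The Col3a1 to Col1a1 ratio showed no such order in the CD45 libraries. In the doxorubicin libraries it was 0.674 and 1.3 in pericyte-gated against 0.685 and 0.944 in fibroblast-gated cells. In the untreated ones it was 1.02 and 0.381 against 0.578 and 0.401. In the T cell sort it was lower in pericyte- than in fibroblast-gated cells wherever both gates held cells. It was 0.766 against 1.13 untreated, 0.7 against 1.19 at 48 h and 0.738 against 1.3 with anti-PD1, with no overlap of intervals. These values rest on 12, 13 and 5 pericyte-gated and 12, 33 and 27 fibroblast-gated cells.

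Endothelial-gated cells were led by the basement membrane chains Col4a1 at 43.63, Col4a2 at 26.33 and Col18a1 at 8.29 UMIs per 10000. Col18a1 is the precursor of endostatin, a fragment that inhibits vessel growth. Col15a1, its closest relative, stood at 7.978 per 10000 in this gate. Col13a1, a transmembrane collagen, had 94.7% of its 131 UMIs in the 27 endothelial-gated cells, but only 20 cells of the table held a UMI of it. It was unevenly spread in the CD45 libraries too, where 1 endothelial-gated cell of the first doxorubicin library held 97 UMIs and that gate 99.05% of the library's total.

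Basal-gated cells were led by Col4a1 at 12.81, Col4a2 at 6.187 and Col18a1 at 5.85 UMIs per 10000. Myoepithelial cells rest on the basement membrane. Basal-gated cells also had the highest pooled level of Col17a1, a hemidesmosome collagen, at 1.32, and of Col7a1, which forms anchoring fibrils, at 1.191 per 10000. In luminal-gated cells these stood at 0.04105 and 0.1329 per 10000. Basal-gated cells had on median 4 luminal, 3 fibroblast and 2 Schwann cell markers detected beside 5 basal ones. The part of luminal, fibroblast or other RNA in these levels was not tested.

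Luminal-gated cells were led by Col4a1 at 1.65, Col18a1 at 0.9943 and Col9a3 at 0.9186 UMIs per 10000. Their levels were low, but through their number they held 88.4, 90.3 and 90.4% of the UMIs of Col9a1, Col9a2 and Col9a3, the 3 chains of type IX collagen. They also held 94.7 and 96.2% of the UMIs of Col4a5 and Col4a6 and 96.2% of those of Col25a1, a transmembrane collagen known from neurons. The fewest cells that together held 50% of a gene's UMIs numbered 193 for Col9a3 and 5 for Col1a1. Luminal-gated cells held the largest share of the UMIs of 19 of the 34 members with at least 20 UMIs in the table, and fibroblast-gated cells of 11. Over all genes, luminal-gated cells held 29720262 of the 51959627 UMIs of the table. The same count over all genes was not made, so the 19 members are not a trait of collagen genes.

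Immune-gated cells had little collagen, and 1 gene stood out. In macrophage-gated cells of the pooled table Col14a1, a fibril-associated chain, stood at 0.2985 UMIs per 10000 and was their highest member, ahead of Col4a1 at 0.1031 and Col15a1 at 0.06805. Its 307 UMIs lay in 132 of the 715 cells, 18.5%, and 50% of them in 31 cells. Only 2 of 446 T cell-gated cells held a UMI of it, 0.448%, at a median of 7713.5 UMIs per cell, against 13506 in macrophage-gated cells. In luminal-gated cells Col14a1 stood at 0.04812 per 10000. In macrophage-gated cells of the sorted libraries Col14a1 was lower, at 0.02707 to 0.08979 per 10000. Of these libraries it ranked first in that gate only in the first CD45 doxorubicin one, with 32 UMIs. Col4a1 had 253 UMIs against 54 of Col14a1 in the first untreated CD45 library. Col3a1 had 227 against 73 in the second CD45 doxorubicin library. Neutrophil-gated cells were led by Col15a1, at 0.1799 per 10000. Free RNA from other cells was not removed from these values, and its part in them was not tested.

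**Figure D2:**
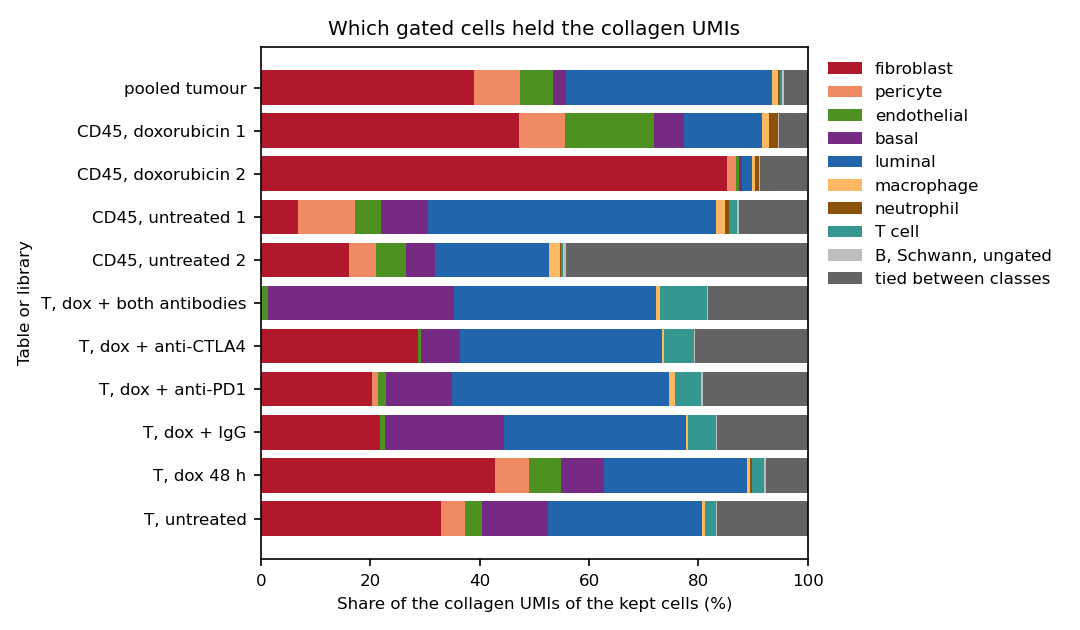
Share of the collagen UMIs of the kept cells held by each gate (colours) in the pooled tumour table and the 10 sorted libraries (rows; T marks the T cell sort, dox doxorubicin). Fibroblast-gated cells held 85.3% in the second CD45 doxorubicin library, luminal-gated cells 52.7% in the first untreated library, and cells tied between classes 44.2% in the second untreated library.

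The first comparison asked which collagen genes differed between CD45-sorted doxorubicin and untreated libraries as a whole. Col9a1 fell after doxorubicin, and Col8a1 and Col15a1 rose. Of the 36 members that passed the filter on low counts, these 3 were called by edgeR at an adjusted p under 0.05, against 5.44% of the 16089 genes tested (3.19% called higher and 2.24% lower). The 2 doxorubicin libraries lay on the same side of both untreated ones for 17 of the 36 members, 14 higher and 3 lower, where 57.4% of all genes tested did so. The median log2 change of the 36 members was 0.96, against -0.02 over all genes tested.

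Levels of whole libraries are counts per 1000000 UMIs (CPM). Col9a1 had 6.269 and 5.909 CPM in the doxorubicin libraries, against 48.43 and 37.5 in the untreated ones. Both doxorubicin libraries were far below both untreated ones. Its log2 change was -2.94 (SE 0.227, adjusted p = 0.0097), and it stayed past the threshold under all 11 alternatives, with a log2 change of -3.09 to -2.72. The other chains of type IX collagen were not called. Col9a2 had 16.68 and 9.545 CPM after doxorubicin and 32.28 and 19.42 in untreated libraries (log2 -1.09, adjusted p = 0.146), and Col9a3 had 37.5 and 26.88 after doxorubicin and 60.46 and 32.69 in untreated libraries (log2 -0.64, adjusted p = 0.3).

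Col8a1, a short-chain network collagen of vessel walls and stroma, had 26.08 and 53.66 CPM in doxorubicin libraries, against 6.685 and 6.811 in untreated ones (log2 2.43, SE 0.344, adjusted p = 0.0231). Fibroblast-gated cells held 87.3 and 74.6% of its UMIs in the doxorubicin libraries and 14.2 and 12.5% in the untreated ones. In the first doxorubicin library 1 cell held 264 of its 441 UMIs, and in the second untreated library 1 cell held 134 of 248. That last cell lay outside the fibroblast gate, whose richest cell held 27, and cells tied between classes held 78.6% of the Col8a1 UMIs of that library. Without fibroblast-gated cells the call was lost (log2 0.52, adjusted p = 0.642). Col15a1 had 29.33 and 62.36 CPM after doxorubicin, against 9.391 and 12.12 in untreated libraries (log2 1.96, SE 0.37, adjusted p = 0.0453). Endothelial-gated cells held 56.9% of its UMIs in the first doxorubicin library and fibroblast-gated cells 61.7% in the second. Both calls were lost when all non-immune gated cells were left out (Col8a1 log2 0.13, adjusted p = 0.953; Col15a1 log2 1.41, adjusted p = 0.237), and when either untreated library was left out; that of Col15a1 also without the second doxorubicin library.

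The abundant fibrillar chains varied widely between libraries of 1 group. Col1a1 had 161.5 and 1628 CPM in the doxorubicin libraries and 29.49 and 142.3 in the untreated ones. Only the second doxorubicin library, the one with 92 fibroblast-gated cells, was far above the rest. Col3a1 had 110.1 and 1519 CPM after doxorubicin and 22.34 and 69.81 in untreated libraries. Neither passed the threshold (Col1a1 log2 3.21, SE 1.45, adjusted p = 0.266; Col3a1 log2 3.97, SE 1.51, adjusted p = 0.205). Col1a2, Col5a2 and Col6a1 also missed the threshold, with log2 values of 3.44, 2.35 and 2.83 and adjusted p of 0.252, 0.241 and 0.228. With the first doxorubicin library left out, so that the second stood alone, 7 members were called higher in place of 2. Without fibroblast-gated cells it was 1.

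**Figure D3:**
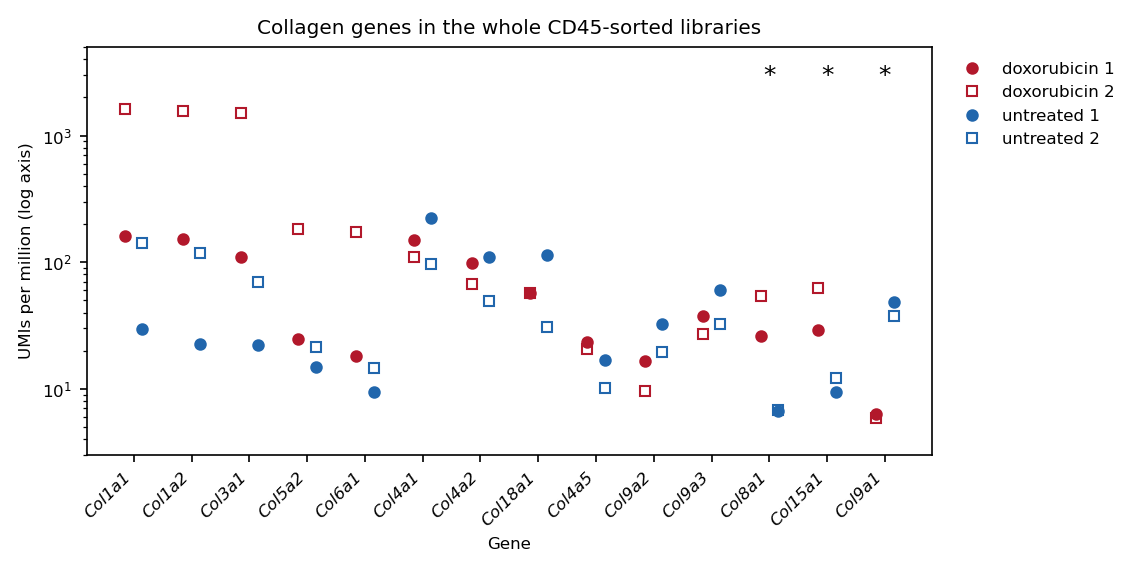
CPM (log axis) of 14 collagen genes in the 2 doxorubicin (red, left) and 2 untreated (blue, right) whole CD45 libraries, with an asterisk on genes called at an adjusted p under 0.05. The second doxorubicin library lies at 1519 to 1628 CPM for Col1a1, Col1a2 and Col3a1, while both doxorubicin libraries lie below both untreated ones for Col9a1.

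The abundant basement membrane chains Col4a1, Col4a2 and Col18a1 overlapped between the groups. Col4a1 had 150.1 and 109.2 CPM after doxorubicin and 223.9 and 96.64 in untreated libraries (log2 -0.41, adjusted p = 0.586). Col4a2 had 98.89 and 66.76 after doxorubicin and 110.6 and 48.96 in untreated libraries (log2 -0.05, adjusted p = 0.955). Col18a1 had 57.31 and 56.68 after doxorubicin and 113.2 and 30.91 in untreated libraries (log2 -0.45, adjusted p = 0.682). Col4a5 had 23.3 and 20.48 after doxorubicin and 16.94 and 10.15 in untreated libraries (log2 0.58, adjusted p = 0.264). Col4a6 had 7.156 and 10.03 after doxorubicin and 5.397 and 3.857 in untreated libraries (log2 0.77, adjusted p = 0.18). For these 2 chains the groups did not overlap, but neither difference passed the threshold. The remaining members ranged over log2 values of -2.65 for Col2a1 to 3.88 for Col28a1, both without a call. Col2a1 passed the filter on low counts only through the untreated libraries and Col28a1 only through the doxorubicin ones, where each was high. These 2 values cannot stand as separate results. Col2a1 had 2 and 4 UMIs after doxorubicin against 61 and 17 untreated, and Col28a1 6 and 92 against 4 and 5. The 8 members under the filter were Col4a3, Col6a4, Col6a5, Col10a1, Col19a1, Col22a1, Col24a1 and Col26a1, with at most 88 UMIs in any CD45 library.

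Of 70 genes that make, process, bind or degrade collagen, 67 were tested, and 6 rose and 0 fell, where 5.44% of all genes tested were called, 3.19% higher and 2.24% lower. The median log2 change of the 67 was 0.70, against -0.02 over all genes tested. Among the 6 collagen degraders 3 rose, against the same 3.19% of all genes. Mmp9, a gelatinase of neutrophils, had 378.8 and 371.6 CPM after doxorubicin, against 16.87 and 9.246 in untreated libraries (log2 4.73, adjusted p = 0.0097). Mmp8, the neutrophil collagenase, had 46.66 and 29.46 against 4.254 and 6.838 in untreated libraries (log2 2.67, adjusted p = 0.0238), and Ctsk, a cysteine protease that cleaves collagen, had 29.81 and 79.43 against 4.37 and 4.568 (log2 3.47, adjusted p = 0.0237). Neutrophil-gated cells made up 60.2 and 49.9% of the kept cells in the doxorubicin libraries and 10.3 and 6.4% in the untreated ones. The part of this share in the protease values was not tested. The other 3 were Hspg2, the perlecan core of basement membrane (log2 1.83, adjusted p = 0.0284), the matricellular gene Sparcl1 (log2 2.09, adjusted p = 0.0352) and Tmem38b, a channel of the endoplasmic reticulum needed for collagen assembly in bone (log2 1.20, adjusted p = 0.0291). None of the 13 hydroxylases and partners, which modify proline and lysine in the chains, was called, and none of 4 tested cross-linking genes.

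The second comparison looked within luminal-gated cells of the CD45 sort (7.43 and 6.31% of the kept cells in the doxorubicin libraries and 16.3 and 10.8% in the untreated ones). Col9a1 fell, and Col4a5, Col4a6 and Col6a2 rose. These 4 of 25 members tested were called, against 7.73% of 13099 genes (3.13% higher, 4.6% lower). Col6a2 passed the filter on low counts only through the doxorubicin libraries, where it was high, so its call cannot stand as a separate result. The groups did not overlap for 18 of the 25, 9 higher and 9 lower after doxorubicin, where 58.9% of all genes tested did not overlap. The median log2 change of the 25 was -0.13, against 0.00 over all genes tested. These cells passed a magnetic extraction for CD45 and are not a random sample of tumour epithelium.

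Col9a1 had 0.1052 and 0.1726 UMIs per 10000 in luminal-gated cells of the doxorubicin libraries, against 0.8651 and 0.935 in the untreated ones (log2 -2.90, SE 0.253, adjusted p = 0.00214). It was called under all 11 alternatives, with a log2 change between -3.26 and -2.63. At least 50% of its UMIs came from 3 and 12 cells in the doxorubicin libraries and from 79 and 22 in the untreated ones. Col9a3, the chain that joins Col9a1 and Col9a2 in the same molecule, had 0.9511 and 1 UMIs per 10000 after doxorubicin and 1.029 and 0.8242 in untreated libraries. Its log2 value was -0.13 (SE 0.21, adjusted p = 0.739), and the groups overlapped. Col9a2 had 0.4664 and 0.3905 per 10000 after doxorubicin and 0.5993 and 0.4865 in untreated libraries (log2 -0.54, adjusted p = 0.18).

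The X-linked type IV chains were higher after doxorubicin. Col4a5 had 0.7088 and 0.8321 UMIs per 10000 in luminal-gated cells of the doxorubicin libraries, against 0.3148 and 0.2923 in the untreated ones (log2 1.14, SE 0.192, adjusted p = 0.0165). Col4a6 had 0.2081 and 0.4431 after doxorubicin, against 0.09849 and 0.1171 in untreated libraries (log2 1.39, SE 0.328, adjusted p = 0.0479). The groups did not overlap for either gene. Both calls were lost when either untreated library was left out, and that of Col4a6 also without the second doxorubicin library. That of Col4a5 was also lost in the luminal-gated cells with no marker of the fibroblast, pericyte and endothelial lists. Markers of the remaining classes were allowed in those cells. Col6a2 had 0.016 and 0.06873 UMIs per 10000 after doxorubicin, against 0.002583 and 0 in untreated libraries (log2 4.36, SE 0.994, adjusted p = 0.0461), on 7, 47, 8 and 0 UMIs. In the second doxorubicin library 1 cell held 29 of the 47, and the call was lost without that library or without the second untreated one.

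Col4a1 and Col4a2 had lower values after doxorubicin, not past the threshold. Col4a1 had 0.5327 and 0.329 UMIs per 10000 after doxorubicin, against 2.552 and 0.9032 in untreated libraries (log2 -2.19, SE 0.591, adjusted p = 0.0971). It was called under 4 of 10 alternatives, among them DESeq2, no filter on low counts and the fit without the second untreated library, with adjusted p of 1.17e-08 to 0.252 over all 10. At least 50% of its UMIs came from 3 cells in each doxorubicin library and from 37 and 6 cells in the untreated ones. Col4a2 had 0.3064 and 0.1594 after doxorubicin and 1.223 and 0.3885 in untreated libraries (log2 -1.99, adjusted p = 0.189), and was called under 3 of 10, among them DESeq2 and the fit without the second untreated library. Other members that stayed just short were Col6a1 (log2 4.66, adjusted p = 0.0504), Col1a2 (log2 2.55, adjusted p = 0.0512), Col16a1 (log2 -1.23, adjusted p = 0.0606), Col5a2 (log2 -2.55, adjusted p = 0.0642) and Col25a1 (log2 1.13, adjusted p = 0.0674). Col6a1 and Col1a2 passed the filter on low counts only through the doxorubicin libraries, where they were high. Their values cannot stand as separate results. At least 50% of the Col6a1 UMIs came from 1 and 4 cells in those libraries. Of the 70 collagen-handling genes 55 were tested here, and 1 was called higher and 2 lower, where 7.73% of all genes tested were called, 3.13% higher and 4.6% lower. Mmp9 rose, with 13.72 and 9.213 CPM after doxorubicin against 1.259 and 0.3631 in untreated libraries (log2 3.46, adjusted p = 0.0157). Luminal-gated cells had on median 3 and 1 neutrophil markers detected in the doxorubicin libraries, against 0 and 0 in the untreated ones, and the part of neutrophil RNA in the Mmp9 values was not tested. Plod1, a lysyl hydroxylase (log2 -1.22, adjusted p = 0.0311), and Lama1, a laminin chain of basement membrane (log2 -2.34, adjusted p = 0.0447), fell.

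**Figure D4:**
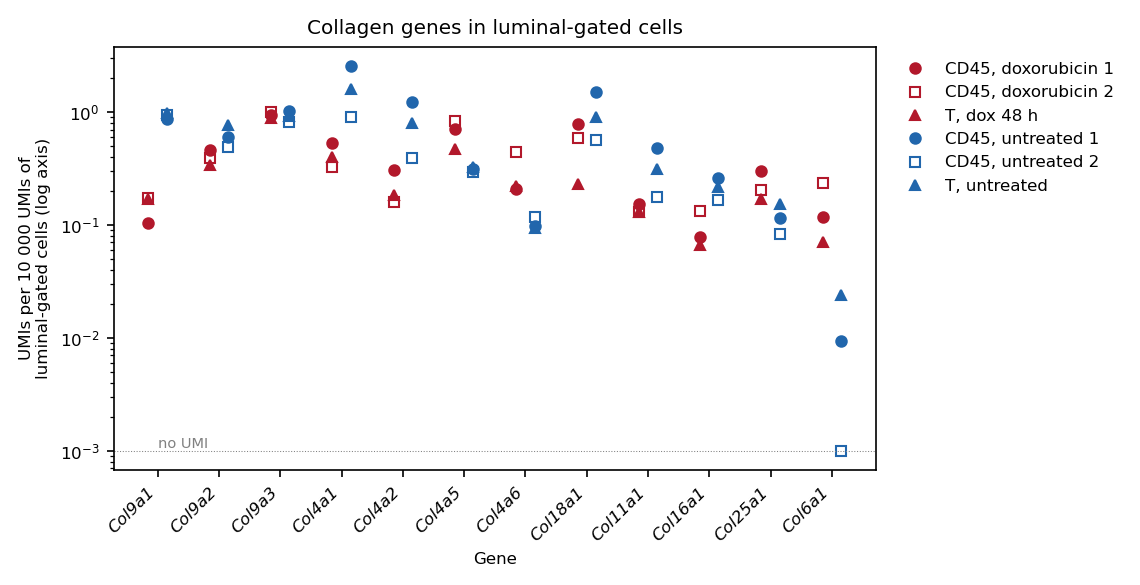
UMIs per 10000 UMIs (log axis) of 12 collagen genes in luminal-gated cells of 3 doxorubicin libraries at 48 h (red, left) and 3 untreated libraries (blue, right), from the CD45 sort (circles and squares) and the T cell sort (triangles). All 3 doxorubicin points lie below all 3 untreated points for Col9a1 and above them for Col4a5 and Col4a6, while those of Col9a3 overlap.

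The T cell sort gave separate libraries, 1 per group, in which luminal-gated cells numbered 1729 at 48 h after doxorubicin and 454 without treatment. There is no replicate, so ratios carry counting error only and no p. Col9a1 stood at 0.1686 UMIs per 10000 at 48 h, against 0.9777 untreated, a ratio of 0.172 (95% interval 0.158 to 0.188). Col9a3 stood at 0.889 at 48 h, against 0.9201 untreated, a ratio of 0.966 (0.916 to 1.02). Col9a2 was lower, with 0.38 UMIs (0.357 to 0.405) per Col9a3 UMI at 48 h, against 0.84 (0.79 to 0.892) untreated. Col4a5 stood at 0.4692 against 0.3263 untreated (ratio 1.44, 1.32 to 1.56) and Col4a6 at 0.22 against 0.09487 untreated (ratio 2.32, 2.01 to 2.69). Col6a2 stood at 0.02635 against 0.005557 untreated (ratio 4.74, 2.7 to 8.98). For Col6a2, 3 of the 1729 cells held 50% of the 103 UMIs at 48 h, and 1 of the 454 untreated cells held 10 of 14. Col9a1, Col4a5 and Col4a6, called in the CD45 luminal gate, lay on the same side here. Col6a2, whose call there cannot stand as a separate result, is not counted with them. Col4a1 stood at 0.3983 against 1.613 untreated (ratio 0.247, 0.233 to 0.262), Col4a2 at 0.1842 against 0.7947 untreated (ratio 0.232, 0.213 to 0.253), and Col18a1 at 0.231 against 0.9102 untreated (ratio 0.254, 0.235 to 0.274).

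Of the 32 members with at least 20 UMIs over these 2 luminal gates, 11 were at least 2-fold higher at 48 h and 14 at least 2-fold lower. Of all 14764 genes with as many UMIs, 23.2% were past that fold, 15.6% higher and 7.65% lower. The higher ones included Col1a1, Col1a2 and Col3a1, with ratios of 5.52, 5.96 and 5.62, at levels of at most 0.07368 per 10000, where fibroblast-gated cells of the same library stood at 93.62, 104.3 and 111.2. In the 48 h library 2 luminal-gated cells held 50% of the Col1a2 UMIs of the gate. The part of fibroblast RNA in these ratios, and in that of Col6a2, was not tested. In whole T cell libraries 5 of 39 members were at least 2-fold higher and 12 at least 2-fold lower at 48 h, where 15.4% of all genes were past the fold, 10.6% higher and 4.81% lower. Of the 3 members called in whole CD45 libraries, Col9a1 had a whole-library ratio of 0.192 (0.179 to 0.206) here. Col8a1 and Col15a1, higher after doxorubicin in the CD45 sort, had ratios of 0.831 (0.767 to 0.9) and 0.681 (0.617 to 0.753), so they lay on the other side of 1.

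The ratio of Col9a1 to Col9a3 UMIs compares 2 chains within the same cells. In the pooled table it was 0.716 (95% interval 0.676 to 0.76) in luminal- and 1.27 (0.91 to 1.77) in basal-gated cells. Luminal-gated cells had on median 1 basal marker detected in each 48 h doxorubicin library. Untreated, they had 2 and 1 in the CD45 sort and 2 in the T cell sort. The part of basal RNA in the luminal values of Col9a1, Col4a1 and Col18a1 was not tested. In luminal-gated cells the ratio was 0.111 (0.0797 to 0.15) and 0.173 (0.141 to 0.21) in the CD45 doxorubicin libraries, against 0.841 (0.798 to 0.885) and 1.13 (1.04 to 1.24) in the untreated ones. In the T cell sort it was 0.19 (0.174 to 0.206) at 48 h, against 1.06 (1 to 1.13) untreated. The ratio was lower in each doxorubicin library at 48 h than in every untreated one. In basal-gated cells it was 0.714 and 0.517 in the CD45 doxorubicin libraries, against 0.694 and 1.03 in the untreated ones, which overlap, and the first doxorubicin value comes from 1 cell. The other CD45 libraries held 14 basal-gated cells after doxorubicin, against 32 and 8 untreated. In the T cell sort it was 0.537 at 48 h, against 1.34 untreated. The Col9a2 to Col9a3 ratio in luminal-gated cells was also lower in each 48 h doxorubicin library than in every untreated one. In the CD45 sort it was 0.49 (0.413 to 0.581) and 0.39 (0.338 to 0.45), against 0.583 (0.55 to 0.617) and 0.59 (0.53 to 0.658) untreated. The intervals of the first doxorubicin library and of both untreated ones overlapped. In the T cell sort it was 0.38 at 48 h, against 0.84 untreated. The Col4a1 to Col4a2 ratio varied little: it was 1.74 and 2.06 in luminal-gated cells of the CD45 doxorubicin libraries, against 2.09 and 2.32 in the untreated ones, and 2.16 at 48 h against 2.03 untreated in the T cell sort. These pairs were chosen with earlier results of these data known.

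**Figure D5:**
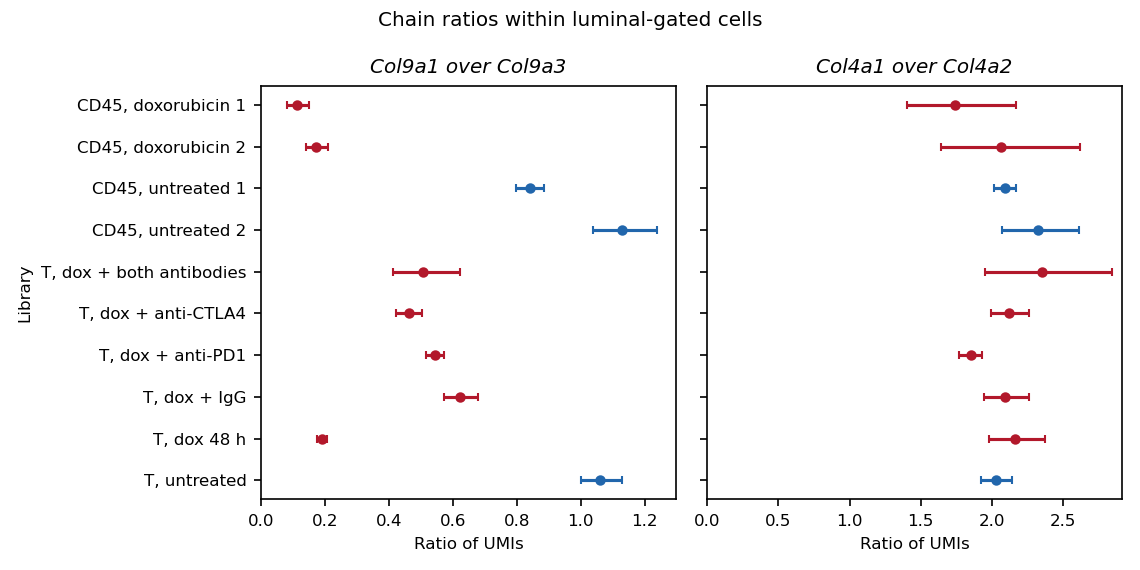
Ratio of UMIs of Col9a1 to Col9a3 (left) and of Col4a1 to Col4a2 (right) in luminal-gated cells of 10 libraries, with 95% intervals of counting error (bars); red marks libraries from doxorubicin-treated and blue from untreated tumours. The Col9a1 to Col9a3 ratio is 0.111 to 0.19 at 48 h, 0.462 to 0.624 in the later antibody arms and 0.841 to 1.13 in untreated libraries, while Col4a1 to Col4a2 stays between 1.74 and 2.35 in all 10.

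In the arms collected after the antibody course, the Col9a1 to Col9a3 ratio lay between these values. It was 0.507 with both antibodies, 0.462 with anti-CTLA4, 0.544 with anti-PD1 and 0.624 with IgG. The IgG library had a Col9a1 level of 0.5685 UMIs per 10000 in luminal-gated cells, against 0.1686 at 48 h, a ratio of 3.37 (3.05 to 3.74). Col4a1 was also higher with IgG, at 1.366 against 0.3983 at 48 h (ratio 3.43, 3.21 to 3.66), and so was Col18a1, at 0.7707 against 0.231 (ratio 3.34, 3.06 to 3.64). Col25a1 was lower, at 0.03155 with IgG against 0.1686 at 48 h (ratio 0.187, 0.137 to 0.25). Of 32 members, 8 were at least 2-fold higher and 9 at least 2-fold lower with IgG than at 48 h, where 24% of all 14571 genes were past that fold, 9.75% higher and 14.3% lower. In whole libraries 2 of 38 members were higher and 15 lower, where 16.3% of all genes were past the fold, 4.45% higher and 11.9% lower. These libraries differ in time, antibody and tumour at once, which cannot be told apart.

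Between antibody arms and IgG, luminal-gated cells differed in single chains. Col9a2 stood at 0.1614 UMIs per 10000 with both antibodies, 0.166 with anti-CTLA4 and 0.4616 with anti-PD1, against 0.2698 with IgG. Col25a1 stood at 0.007017 with both antibodies, 0.01585 with anti-CTLA4 and 0.07413 with anti-PD1, against 0.03155 with IgG. With both antibodies 2 of 22 members were at least 2-fold higher than with IgG and 10 lower, where 11.5% of all genes were past the fold, 4.26% higher and 7.25% lower. With anti-CTLA4 6 of 27 were higher and 2 lower, where 7.17% of all genes were past it, 5.01% higher and 2.16% lower. With anti-PD1 6 of 30 were higher and 3 lower, where 9.61% of all genes were past it, 5.58% higher and 4.03% lower. Col6a1 stood at 0.1146 with both antibodies (ratio 2.74, 1.85 to 4.03), 0.153 with anti-CTLA4 (ratio 3.65, 2.76 to 4.9) and 0.03243 with anti-PD1 (ratio 0.775, 0.575 to 1.05), against 0.04185 with IgG. With anti-CTLA4 2 of the 313 luminal-gated cells held 50% of its 222 UMIs. Among whole libraries the one with both antibodies had no fibroblast- or pericyte-gated cell and 9 Col1a1 UMIs, against 1575 with IgG. There 28 of 35 members were at least 2-fold lower and 0 higher, where 20.3% of all genes were past the fold, 2.95% higher and 17.4% lower. With anti-CTLA4 6 of 36 members were higher and 5 lower in whole libraries, where 6.18% of all genes were past the fold, 3% higher and 3.18% lower. With anti-PD1 8 of 37 were higher and 0 lower, where 12% of all genes were past the fold, 6.78% higher and 5.2% lower. The share of luminal-gated cells was 3.85% with both antibodies and 7.17% with IgG, and its part in the whole-library ratios was not tested.

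Fibroblast-gated cells were not tested between groups, since 3 of the 4 CD45 libraries held 2 or 3 of them, under the minimum of 30 cells set here. Per 10000 UMIs of the gate, Col1a1 stood at 238.7 and 214.1 in the doxorubicin libraries, against 96.91 and 148.6 in the untreated ones. In the T cell sort it stood at 93.62 in 33 fibroblast-gated cells at 48 h, against 101.3 in 12 untreated ones. Col3a1 stood at 163.4 and 202.1 after doxorubicin against 55.99 and 59.54 untreated in the CD45 sort, and at 111.2 at 48 h against 114.9 untreated in the T cell sort. Among gated cells both chains were higher per UMI after doxorubicin in the CD45 sort and close in the T cell sort. The CD45 values rest on single cells: in the second untreated library the cells richest in Col1a1 (2197 UMIs) and Col3a1 (1330 UMIs) lay outside the gate, whose richest cells held 817 and 315, and cells tied between classes held 62.9% of the Col1a1 and 69.8% of the Col3a1 UMIs of that library. Col6a3 stood at 4.751 and 9.835 after doxorubicin against 12.02 and 14.1 untreated in the CD45 sort, and at 5.494 at 48 h against 14.99 untreated in the T cell sort.

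In macrophage-gated cells of the CD45 sort, 7 of 14 members tested were called, against 8.18% of 11895 genes (4.15% higher, 4.03% lower). Col1a2 (log2 2.90, adjusted p = 0.0247), Col1a1 (log2 2.60, adjusted p = 0.0369) and Col14a1 (log2 1.34, adjusted p = 0.0378) rose. Col9a1 (log2 -4.84, adjusted p = 0.0204), Col4a1 (log2 -1.25, adjusted p = 0.0212), Col18a1 (log2 -2.46, adjusted p = 0.023) and Col9a2 (log2 -3.17, adjusted p = 0.0492) fell. Col9a1 and Col9a2 passed the filter on low counts only through the untreated libraries, where they were high, so their calls cannot stand as separate results. The groups did not overlap for 13 of the 14, where 56.4% of all genes tested did not overlap. Levels were small: Col1a1 had 6.382 and 18.08 CPM after doxorubicin against 1.408 and 2.709 untreated, and Col9a1 had 1 and 0 UMIs against 47 and 27. Beside these values stand 2 and 92 fibroblast-gated cells after doxorubicin against 3 and 2 untreated, and luminal-gated shares of 7.43 and 6.31% after doxorubicin against 16.3 and 10.8% untreated. Macrophage-gated cells without a single marker of the fibroblast, pericyte, endothelial, basal and luminal lists numbered 35 of 235 and 387 of 745 after doxorubicin, against 234 of 1157 and 320 of 755 untreated. In those cells, a subset chosen after seeing the data, only Col4a1 of these passed the low-count filter, with a log2 change of -0.12 (adjusted p = 0.959). None of the 7 was called when either doxorubicin library was left out. Col14a1 stayed called under 5 of 10 alternatives and was lost with DESeq2 (adjusted p = 0.0696) and without any 1 of the 4 libraries. Col9a2 stayed called under 4 of 10 and was lost with DESeq2 (adjusted p = 0.19), with a gate at 4 markers and without any 1 library. Col18a1 was also lost without the first untreated library (adjusted p = 0.0654). Col14a1, the highest member of macrophage-gated cells in the pooled table, had 7.855 and 8.979 CPM after doxorubicin, against 3.306 and 3.176 untreated.

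Neutrophil-gated and T cell-gated cells gave no call, over 8 and 4 members tested. Over all 9423 and 11221 genes edgeR also called 0 (0%), where 1686 and 567 genes had an unadjusted p under 0.05, and DESeq2 called 325 and 27 genes. Of the members, 1 of the 8 in neutrophil-gated and 0 of the 4 in T cell-gated cells had an unadjusted p under 0.05, and DESeq2 called 0 members in either. The groups did not overlap for 3 of the 8 in neutrophil-gated and 0 of the 4 in T cell-gated cells, where 51.1 and 35.6% of all genes tested did not overlap.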

How the data were processed

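Single-cell RNA libraries were deposited as count matrices of UMIs per gene and barcode. Per the file headers, the counts of the 10 sorted libraries were made by the authors with Cell Ranger 6.0.0. Per the submitters' processing notes, the pooled table used Cell Ranger and Seurat on mm10, with versions not given in the sources used here. The sorted matrices name no genes, and names were taken from the row order of the pooled table, whose gene totals correlated with theirs at 0.954 to 0.984 in the same row order and at most 0.354 when shifted. Cell barcodes shared between sorted libraries could not be counted. The 2 barcode sets of the pooled table, of 1508 and 2508 cells, shared 0.

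Cells with at least 500 UMIs, 200 genes and under 20% mitochondrial UMIs were kept for the gates. Whole-library levels, tests and ratios used all deposited barcodes, and the kept cells alone were an alternative. A cell was gated to a class when it held at least 3 of its 7 markers and more than of any of the other classes, and was called tied where 2 classes were equal. No doublet caller was run. Counts were summed per library, or per library and gate with at least 30 cells in each library, then fitted by the robust quasi-likelihood method of edgeR (version 4.0.16, under R 4.3.3) after filterByExpr and TMM scaling, with p values adjusted by Benjamini-Hochberg over all genes tested and a threshold of 0.05, with the 2 doxorubicin and 2 untreated CD45 libraries in each fit. An SE is the absolute log2 change divided by the square root of F. DESeq2 1.42.0, other size factors, filters, gates and left-out libraries were alternatives. The edgeR step was run on simulated data with the same spread set for every gene. That setting does not cover spreads within a group as wide as those of Col1a1 and Col3a1 here. T cell libraries, 1 per group, got ratios with exact 95% intervals, which cover counting error only, and a rule of 2-fold with at least 20 UMIs.

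Named genes were the 12 members with the most UMIs, each member past the threshold, the 3 highest of each gated class, and called genes of a second list of 70; others are named where a count or pattern needed them, after their values were seen. The members, lists and chain pairs were chosen with earlier results of these data known. Promoter windows are from RefSeq. A bulk table with 12 columns that match no sample label was not used, and chromatin accessibility samples were not analysed here.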

Additional observations from a re-analysis of the deposited data

Results flagged for a closer look

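Col8a1 in luminal-gated cells had values on opposite sides in the 2 sorts, on few cells. In the T cell sort it stood at 0.04093 UMIs per 10000 at 48 h after doxorubicin, against 0.08217 untreated, a ratio of 0.498 (95% interval of counting error 0.403 to 0.615). In the CD45 sort it stood at 8.002 and 16.96 CPM (counts per 1000000 UMIs) after doxorubicin, against 7.621 and 0.09077 untreated (log2 1.39, edgeR adjusted p = 0.641). In the first doxorubicin library of that sort 1 cell held 32 of its 35 UMIs, and in the second 2 cells held 50% of 116. The difference between the sorts was not tested.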

How the results depend on the processing

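Depth limits the gates with few cells, and 2 libraries per group limit every test. Col9a1 stayed called in whole CD45 libraries and in luminal-gated cells under all 11 alternatives each. Counts of called members and genes moved as follows, and the cause was not tested. In whole libraries members called higher numbered 4 with DESeq2, 0 without non-immune gated cells and 1 without fibroblast-gated cells, and all genes called 2551 with DESeq2 and 1950 with no filter on low counts. In luminal-gated cells higher members numbered 5 with DESeq2, 5 with RLE size factors and 8 with no filter. They numbered 0 in cells with no marker of the fibroblast, pericyte and endothelial lists (chosen after seeing the data). Lower members numbered 7 with DESeq2 and 7 with no filter. All genes numbered 1601 with DESeq2, 113 in the cells without those markers and 2493 with no filter. In macrophage-gated cells with no marker of the fibroblast, pericyte, endothelial, basal and luminal lists, higher members numbered 0, lower members 0 and all genes 357. With no filter, higher members in macrophage-gated cells numbered 6 and all genes 1994. Neutrophil-gated cells gave 4 higher and 4 lower members and 690 genes with no filter, and 325 genes with DESeq2. T cell-gated cells gave 1 higher and 1 lower member and 163 genes with no filter, and 27 genes with DESeq2.

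The replicate numbers are only numbers: same-numbered deviations correlated at 0.13 to 0.35 across genes in 2 pairs. With a replicate block, whole libraries gave 6 higher and 2 lower members and 1412 genes, luminal-gated cells 7, 7 and 2226, macrophage-gated cells 1659 genes, neutrophil-gated cells 1 higher member and 324 genes, and T cell-gated cells 44 genes. In whole libraries Col1a1 (adjusted p = 0.012), Col1a2 (0.0103) and Col9a2 (0.0341) were called under the block and under none of the other alternatives. Under the block the log2 value of Col4a2 in whole libraries was 0.02.

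Leaving out 1 library at a time gave 0 to 7 higher and 1 to 2 lower members and 372 to 557 genes in whole libraries. It gave 1 to 5, 1 to 7 and 421 to 804 in luminal-gated cells, and 0 to 2, 0 to 3 and 0 to 1301 in macrophage-gated cells. It gave 0 to 3, 0 to 6 and 137 to 831 in neutrophil-gated cells, and 0 to 1, 0 to 3 and 0 to 294 in T cell-gated cells. Some uncalled log2 values changed sign. With 1 library left out, those in whole libraries ran from -0.88 to 0.28 for Col4a1, -0.51 to 0.62 for Col4a2 (0.24 without the second doxorubicin library) and -1.09 to 0.74 for Col18a1. In luminal-gated cells they ran from -0.49 to 2.58 for Col1a1, -0.28 to 0.01 for Col9a3 and -1.32 to 0.06 for Col18a1. Col9a3 was 0.16 in luminal-gated cells with no marker of the fibroblast, pericyte and endothelial lists. In macrophage-gated cells Col9a3 ran from -1.45 to 0.11, with 0.08 without the second doxorubicin library.

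At 1.5-fold in whole T cell libraries, members higher numbered 9 at 48 h over untreated, 8 with IgG over 48 h, 20 with anti-PD1 over IgG and 10 with anti-CTLA4 over IgG, and members lower 3 with anti-PD1 and 9 with anti-CTLA4. Alternatives on the bulk table were not run.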
